A study of Mus musculus with 2 samples.

Results

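The genes described here are the Wnt ligands, their receptors, their antagonists and the intracellular effectors of the pathway, as represented on an Agilent whole mouse genome array hybridised with skin RNA. Members were chosen by gene name, with no threshold on signal or ratio: genes of the Wnt, Fzd, Dkk, Sfrp, Rspo and Nkd families, with Lrp5, Lrp6, Axin1, Axin2, Tcf7, Tcf7l1, Tcf7l2, Lef1, Ctnnb1, Wif1 and Frzb. This gave 53 genes of 27575 on the array, on 77 probes and 95 spots. No probe carried the name Tcf7l1 in the files; 2 probes for it were found under an older name and are described separately. Of the 53 genes, 43 were well above background on both arrays, 1 on the PBS array only and 9 on neither.

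The series compared dorsal skin of C3H/HeN mice (males aged 61 days) in which hair growth (anagen) had been induced by depilation 5 days earlier. One group had received 1 µg of FGF18 protein, a secreted fibroblast growth factor, under the skin on day 4 of anagen, 24 h before collection, and the other received PBS in its place; both groups carried the same depilation and neither carried a transgene. The design text gives pooled poly(A) RNA and 1 array per group, while the extraction protocol names 3 mice extracted separately, but not if that number is for each group or in all. The sample title of the PBS array has the word telogen, the resting phase, but its source name and hair cycle entry say anagen; the 10 listed genes of hair matrix and shaft, which are active in growing follicles, were all well above background on both arrays.

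With 1 array per group there is no replicate check on any difference, and no test across samples was possible. Full-thickness skin holds epidermis, follicles, dermis, fat, muscle and immune cells, so fewer cells of a type and less RNA per cell cannot be told apart. Levels are processed signals in the scanner's units, and differences are log2 ratios, FGF18 minus PBS, after each array's 75th percentile had been subtracted. The only measured errors were technical. Among 179 probes printed as several spots, the SD of the log2 ratio of a single spot had a median of 0.19 for dim probes (a mean signal under 100), 0.070 for middle and 0.032 for bright ones (1000 or more). Different probes for the same gene varied more than spots of middle or bright probes, with a median SD of 0.13 over 5739 genes. The share of gene spots well above background was 62.4% with FGF18 and 61.5% with PBS. Whatever else differed between the hybridisations cannot be told apart from the treatment.

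Wnt proteins are secreted, lipid-modified signals that bind a Frizzled receptor together with the co-receptor LRP5 or LRP6. Binding inactivates a destruction complex built on Axin, so that beta-catenin, the product of Ctnnb1, accumulates and acts with the DNA-binding TCF/LEF factors on target genes. Secreted Frizzled-related proteins and Wif1 bind Wnts outside the cell, Dickkopf proteins bind the LRP co-receptors, and R-spondins prolong signalling by keeping receptors at the cell surface. In skin the pathway is known for its part in forming hair follicles, in starting anagen and in building the hair shaft from the matrix.

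To show the sequence around the start sites of genes that the values below turn on, the bases just upstream of 3 of them are given from RefSeq, build GRCm38.p6, 5′ to 3′ on the strand of the gene. Sfrp2 (chr3:83766071-83766320, plus strand) is the member with the lowest log2 ratio among those with an entry. Axin2 (chr11:108920099-108920348, plus strand) is a widely used readout of beta-catenin activity. Dkk1 (chr19:30549497-30549746, minus strand) is a member whose window holds the motif CTTTGNT. Capitals mark this motif, searched on both strands as a loose stand-in for sites of TCF/LEF factors. Related strings that do not match it, such as ctttgaa in the Dkk1 window, were neither searched for nor marked.
Sfrp2: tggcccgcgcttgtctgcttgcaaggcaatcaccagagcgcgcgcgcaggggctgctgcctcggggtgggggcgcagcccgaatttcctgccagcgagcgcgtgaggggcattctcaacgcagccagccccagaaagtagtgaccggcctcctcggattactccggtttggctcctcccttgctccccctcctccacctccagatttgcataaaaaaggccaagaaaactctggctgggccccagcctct
Axin2: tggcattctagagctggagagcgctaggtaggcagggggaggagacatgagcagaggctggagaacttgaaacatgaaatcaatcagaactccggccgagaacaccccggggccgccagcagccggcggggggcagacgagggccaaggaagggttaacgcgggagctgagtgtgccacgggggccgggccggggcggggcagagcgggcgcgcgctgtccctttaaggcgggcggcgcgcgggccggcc
Dkk1: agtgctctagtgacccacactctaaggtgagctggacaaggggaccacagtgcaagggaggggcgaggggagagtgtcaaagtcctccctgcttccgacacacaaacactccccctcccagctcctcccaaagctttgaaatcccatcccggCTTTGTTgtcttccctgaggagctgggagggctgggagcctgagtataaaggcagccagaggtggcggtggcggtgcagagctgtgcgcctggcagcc
In Dkk1 the motif began 98 bases before the start site, and neither of the other two windows held it. Entries existed for 36 member genes with 45 windows of 250 bases, and 7 windows (15.6%) held the motif, against 16.0% of all 32851 windows. The 7 genes were Dkk1, Fzd7, Tcf7l2, Wnt1, Wnt5b, Wnt9b and Wnt11. A match describes letters in a window and is no evidence of a bound site.

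No member differed by 2-fold or more between the arrays, as 2.52% of all 16608 genes measured on both did: 0 of 43 were at least 2-fold higher on the FGF18 array and 0 at least 2-fold lower, where 1.53% and 0.987% of all genes were. At 1.5-fold, 4 members (9.30%) were lower on the FGF18 array, the Wnt-binding antagonists Sfrp1 and Sfrp2, the co-receptor Lrp5 and the ligand Wnt10a, against 4.90% of all genes, and 0 were higher, against 3.78% (8.68% of all genes in either direction). The members as a group had a median log2 ratio of -0.18, the median of all genes being -0.07, and 31 of the 43 lay below the median of all genes. Small ratios have to be read against that value rather than against 0, because the scaling between the arrays moves every ratio by the same amount: without scaling the median of all genes was 0.11, and when spike-in transcripts set the scale it was 0.74, which left no member 1.5-fold lower and Sfrp1 at -0.00. By a measure chosen after the ratios were seen, 15 members (34.9%) lay below the median of all genes by more than 2 SDs between probes of a gene (0.26), against 14.7% of all genes, and 4 (9.30%) lay above it by as much, against 15.9%. Members were also set against genes of similar signal. Among 18 bright members, 15 lay below the median of bright genes (-0.07), and among 23 middle members, 15 lay below the median of middle genes (-0.07).

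**Figure D1:**
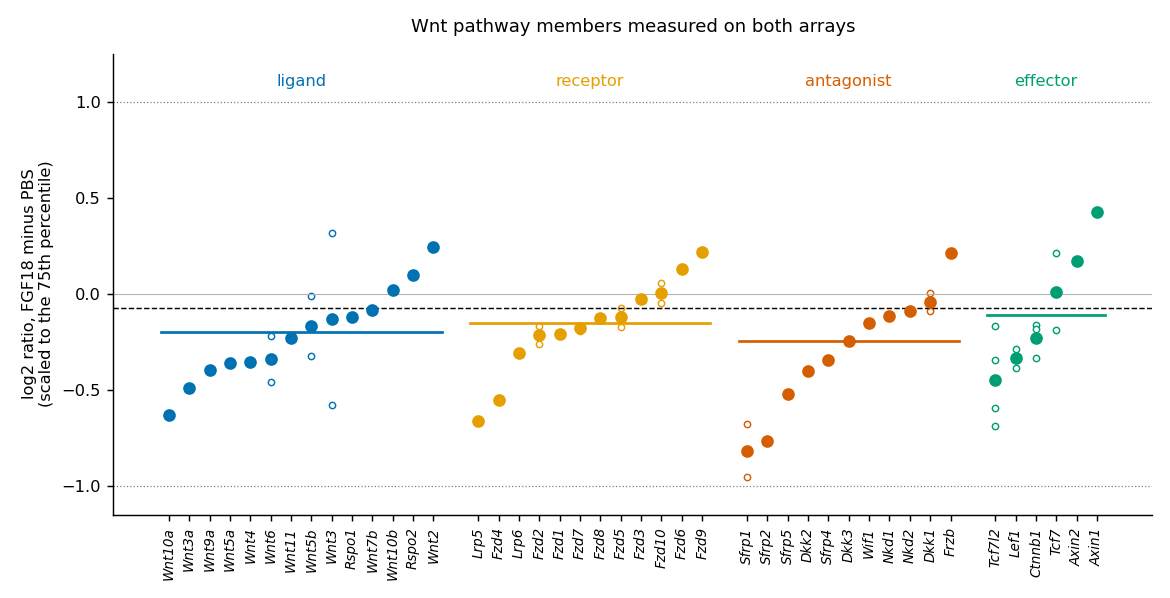
Log2 ratio, FGF18 minus PBS, of the 43 members measured on both arrays, by class; filled circles are genes, open circles the separate probes of a gene where there were several, coloured lines the class medians, the dashed line the median of all genes (-0.07) and the dotted lines 2-fold. All members lie between the dotted lines, from -0.82 for Sfrp1 to 0.42 for Axin1, and most lie below the dashed line.

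**Figure D2:**
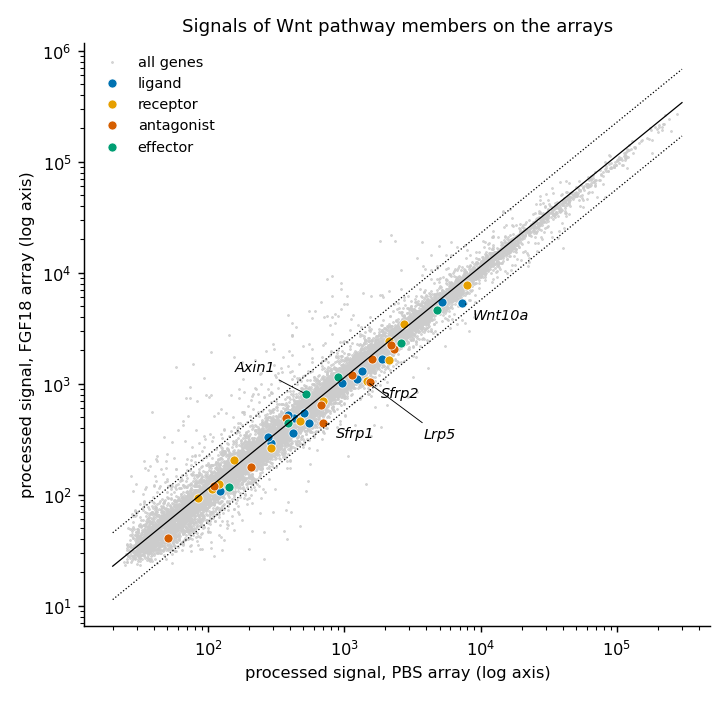
Processed signal on the FGF18 array against that on the PBS array, both on log axes, for all genes measured on both arrays (grey) and for members (coloured by class); the solid line is a scaled log2 ratio of 0 and the dotted lines are 2-fold. The members follow the band of all genes, with Sfrp1, Sfrp2, Lrp5 and Wnt10a at its lower side.

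Among the ligands, 14 of 23 genes were measured on both arrays, with a median log2 ratio of -0.20, and 11 of the 14 lay below the median of all genes. Wnt10a, a ligand made in follicle epithelium and needed for hair, teeth and other skin appendages, had a signal of 5360 with FGF18 and 7290 with PBS. It was 1.55-fold lower on the FGF18 array (log2 ratio -0.63), a difference larger than the SD of a bright spot, and 4.15% of all genes had a ratio as low or lower. Wnt3a stood at 446 and 551 (log2 ratio -0.49). Wnt9a stood at 362 and 419 (log2 ratio -0.40) by 1 of its 2 probes, the other being not well above background on either array. Wnt3a, Wnt9a and Wnt10a thus had the lowest ratios of this class, and all were lower on the FGF18 array before scaling as well. The most positive ratios belonged to Wnt2, at signals of 518 and 385 (log2 ratio 0.24), the R-spondin gene Rspo2, at 335 and 275 (0.10), and Wnt10b, at 493 and 428 (0.02). Wnt10b encodes a ligand known to promote anagen, and its ratio was above the median of all genes but within the spread between probes.

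The other Wnt genes lay between these. Wnt5a, which mostly signals without beta-catenin, had signals of 109 and 123 (log2 ratio -0.36), and Wnt4 had 1680 and 1890 (-0.36). Wnt6 was at -0.34, Wnt11 at -0.23 and Wnt5b at -0.17, while Wnt7b (-0.09) and Rspo1 (-0.12) stayed close to the median of all genes. Wnt3 (-0.13) is the mean of 2 probes of opposite sign: 1 gave signals of 993 and 701 (log2 ratio 0.32) and the other 1020 and 1340 (-0.58). These arrays therefore gave no direction for Wnt3. In the RefSeq gene order, Wnt6 lies next to Wnt10a and Wnt3a next to Wnt9a, and the members of both pairs were below the median of all genes (-0.34 and -0.63, and -0.49 and -0.40). Of all 12 measured Wnt genes, 10 lay below it, so this shows nothing particular to neighbours. Wnt3 and Wnt10b also have Wnt genes as neighbours, Wnt9b and Wnt1, but those were not measured.

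Another 9 ligands had no ratio. Wnt7a was well above background on the PBS array only, at 35.8 against 27.4 with FGF18. That is a scaled ratio of 1.49-fold lower, taken to a signal not well above background, and is not a lower limit. Rspo3, Rspo4, Wnt1, Wnt16, Wnt2b, Wnt8a, Wnt8b and Wnt9b were not well above background on either array. The probe of Wnt1 was printed as 10 spots and shows what such signals are worth. Over the 8 spots without an outlier mark on either array its signal ran from 7.03 to 20.9 with FGF18 and from 5.52 to 16.8 with PBS, and the log2 ratio of single spots had an SD of 0.61. The medians of the negative controls were 5.74 and 6.03.

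All 12 receptor genes were measured on both arrays, with a median log2 ratio of -0.15, and 8 lay below the median of all genes. Lrp5 had signals of 1050 and 1460 and was 1.58-fold lower on the FGF18 array (log2 ratio -0.66), with 3.72% of all genes as low or lower. Lrp6, which encodes the closely related co-receptor, stood at 264 and 288 (-0.31). Fzd4, the receptor of Norrin as well as of Wnts, stood at 1650 and 2130 and was 1.47-fold lower (-0.55). By probes measured on both arrays, the co-receptors and Fzd4 thus had the lowest ratios of the class, each from a single probe under its name in the files. At the other end were Fzd9, at 206 and 156 (0.22), Fzd6, at 3430 and 2760 (0.13), and Fzd10 (0.00), whose probes gave 838 and 710, and 7060 and 6420. Fzd6 is known for orienting hair follicles through planar polarity.

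The remaining Frizzled genes were close to all other genes by probes measured on both arrays. Fzd1, Fzd2, Fzd3, Fzd5, Fzd7 and Fzd8 ranged from -0.22 to -0.03. For Fzd2 the separate probes were at -0.26 and -0.17, for Fzd5 at -0.17 and -0.07 and for Fzd7 at -0.19 and -0.17. Fzd8 was at -0.13 by a probe with signals of 125 and 120, but its other probe was well above background on the PBS array only, at 52.3 against 12.3, which bounds its level with FGF18 as at least 2.55-fold lower. Averaged with that probe at its bound, Fzd8 was at -0.74 or lower, which is below Lrp5 (-0.66). A bound cannot say if the gene reached 2-fold. With the signals of that probe taken as they are, Fzd8 was at -1.20. Fzd3 likewise had a second probe, measured on the FGF18 array only at 36.0 against 24.7. That is a scaled ratio of 1.28-fold higher, taken to a signal not well above background, and is not a lower limit.

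Antagonists had a class median of -0.25 over 11 of 12 genes, and 9 lay below the median of all genes. Sfrp1, a secreted Frizzled-related protein that binds Wnts, had the lowest ratio of all members by probes measured on both arrays. Its brighter probe had signals of 2350 with FGF18 and 4010 with PBS (log2 ratio -0.96), and its dimmer probe 85.2 and 120 (-0.68). As the mean of these probes Sfrp1 was 1.76-fold lower (log2 ratio -0.82), and 1.92% of all genes were as low or lower. Sfrp2, the relative made largely by fibroblasts, stood at 1030 and 1540 and was 1.70-fold lower (-0.77). Sfrp5 was dim, at 40.5 and 51.2 (-0.52), and Sfrp4 stood at 2060 and 2300 (-0.34). Frzb, of the same family, went the other way, at 495 and 376 (0.21). Wif1, which binds Wnts through a different domain, was at 2250 and 2200 (-0.15). The 6 Wnt-binding antagonists together had a median of -0.43, with 5 below the median of all genes and Frzb above it.

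Dickkopf and Naked cuticle genes differed less. Dkk2 stood at 179 and 208 (log2 ratio -0.40) and Dkk3, a divergent member of its family, at 644 and 672 (-0.25). Dkk1, an inhibitor of LRP5 and LRP6 that is itself a target of the pathway, gave 84.9 and 74.5 by 1 probe and 173 and 162 by the other, for a log2 ratio of -0.04. Dkk4 was not well above background on either array. Nkd1 and Nkd2 encode inhibitors that bind Dishevelled inside the cell. Nkd1, a feedback target of beta-catenin, had signals of 1670 and 1590 (-0.11), and Nkd2 was at -0.09 with its probes at -0.10 and -0.09. The Dkk1, Nkd1 and Nkd2 ratios were all within the spread between probes from the median of all genes.

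Effector genes were all measured, with a median of -0.11, and were split: 3 of 6 lay below the median of all genes and 3 above. Axin1, the scaffold of the destruction complex, had signals of 804 and 527 and the highest ratio of any member (0.42), by 1 probe. Axin2, its inducible relative, stood at 1150 and 899 (0.17). Both Axin genes were above the median of all genes in all 15 planned settings in which genes can be compared with it. Each had 1 probe, so the filters and the choice of probe could not change its ratio. Scaling by a constant moves the ratio and that median alike, so most of these settings were no check on it. Tcf7 had probes at -0.19 and 0.21, which average to 0.01. It is counted among the 3 above, but with probes of opposite sign these arrays gave no direction for it. Lef1, the TCF/LEF factor of the hair matrix, had 2 measured probes, with signals of 1130 and 1300 and of 4850 and 5200, and a mean log2 ratio of -0.34. Tcf7l2 was lowest, at -0.45 over 4 probes that ranged from -0.69 to -0.17. Both ends of that range came from dim probes. Its only bright probe, at 1620 and 1810, had a log2 ratio of -0.35, close to that of Lef1.

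Ctnnb1 is the best measured member, since 1 of its 3 probes was printed as 10 spots. On that probe the signals ran from 11500 to 12600 with a median of 12150 on the FGF18 array, and from 11100 to 12700 with a median of 11850 on the PBS array, so the spots of the arrays overlapped. The log2 ratio of its spots was -0.16 ± 0.031 (SD, n = 10 spots of 1 pair of arrays), and all 10 were between -0.24 and -0.13 after scaling. A second bright probe gave 17600 on both arrays (-0.19) and the third, dimmer one 469 and 521 (-0.34). The gene mean of -0.23, in which the probes count equally, was below the median of all genes by 0.15. Taken singly, each bright probe was within the spread between probes from that median. These spots repeat the hybridisation of the same RNA and say nothing of the spread between mice.

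Some probes were hidden from the gene-name rule by older names. Tcf7l1, a TCF factor of follicle stem cells that mostly acts as a repressor, is listed in the files as Tcf3. Its probes had signals of 2050 and 2790 (log2 ratio -0.63) and of 480 and 534 (-0.34), and the gene was at -0.48, a 1.40-fold lower level on the FGF18 array. With it the effectors had 7 genes and a median 0.15 below that of all genes, against 0.03 without it, so the median of this small class depended on 1 gene. They also added a second probe for Lrp6 (-0.28, the first being at -0.31) and a further one for Fzd3 (-0.10, the only other probe measured on both arrays being at -0.03).

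Other genes of the pathway were taken from 7 lists. Of 104 genes, 97 were measured on both arrays, 0 were 2-fold higher or lower, 7 (7.22%) had a ratio 1.5-fold lower or beyond, against 4.90% of all genes, and 0 were as much higher, against 3.78%. The 97 had a median log2 ratio of -0.11. The 7 were Dact1 and Dact2, whose products bind Dishevelled, Lgr5, an R-spondin receptor that marks follicle stem cells, Dkkl1, Sox9, Gpc6 and Lrp4. Lgr5 stood at 916 and 1480 (-0.88), Dact2 at 371 and 573 (-0.81) and Dkkl1 at 2200 and 3190 (-0.72). Dact1 was at -0.93, but its probes were at -1.81 and -0.04, and the probes of Gpc6 were at -1.19 and -0.03, so neither mean describes both of its probes. Sox9 was at -0.66 over 3 probes, and Lrp4 at -0.61.

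The list of Wnt secretion and release had the lowest median, -0.33 over 9 of 10 genes, with Gpc6 lowest and Notum, a Wnt-inactivating enzyme, highest at 0.07. Wls, which carries Wnts to the cell surface, was at -0.41, and Porcn, which attaches their lipid, at -0.33. With the brightest probe of each gene that list lay 0.14 below all genes in place of 0.26. Surface receptors had a median of -0.08 over 15 genes, from Lgr5 to Ror2 (0.40, with probes at -0.20 and 1.01). Cytoplasmic genes were at -0.10 over 25 of 27, with Csnk1d highest (0.27), and nuclear co-factors at -0.04 over 19, from Smarca4 (-0.29) to Sox17 (0.14). Planar polarity genes were at -0.16 over 11 of 12, from Prickle1 (-0.49) to Ptk7 (0.11), and other secreted antagonists at -0.11 over 8 of 9, with Igfbp4 highest (0.28). The antagonist list, 0.03 below all genes here, lay above them by 0.04 with the brightest probes and by 0.10 with signals over 100, and the nuclear list, 0.03 above, lay 0.03 below with the brightest probes.

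Transcripts known to respond to beta-catenin had a median of -0.09 over 18 of 20 genes, 0.02 below that of all genes, with 9 below it and 9 above, and it lay above all genes by 0.02 with the brightest probes and by 0.01 with signals over 100. Lgr5 and Sox9 were lowest, and Cdx1, at dim signals of 102 and 73.1 (0.30), and Myc, at 1431 and 1057 (0.25), were highest. Together with Axin2 (0.17), Nkd1 (-0.11), Dkk1 (-0.04) and Lef1 (-0.34) among the members, genes that report on the pathway thus lay on both sides of the median of all genes.

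**Figure D3:**
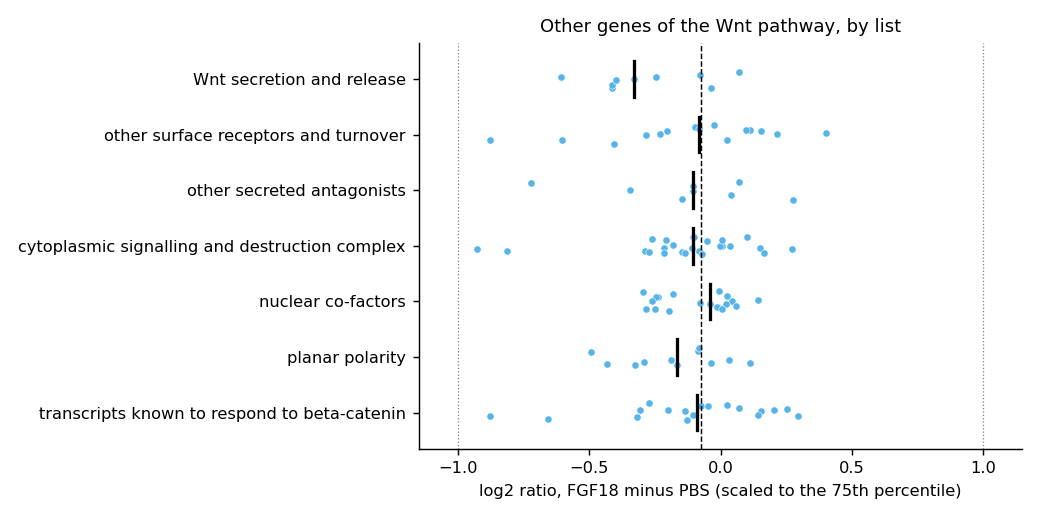
Log2 ratio, FGF18 minus PBS, of other pathway genes measured on both arrays, 1 point per gene, in 7 lists; black bars are list medians, the dashed line is the median of all genes (-0.07) and the dotted lines are 2-fold. No gene lies beyond the dotted lines, and the list of secretion and release has the lowest median (-0.33).

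Markers of skin cell types differed between the arrays as well. Their summed signals are unscaled, and the 75th percentiles that the ratios are scaled by were 1020 with FGF18 and 897 with PBS. Suprabasal epidermis markers, 7 of 7 measured, had a median of -0.83 and a summed signal of 308935 with FGF18 and 400897 with PBS, and 3 of them were 2-fold lower, against 0.987% of all genes. Dermal fibroblast markers, all 8 measured, had a median of -0.28 and a summed signal of 121026 with FGF18 and 133716 with PBS. Inner root sheath markers, 6 of 8 measured, had a median of -0.67 (summed signals 202581 and 272216). Krt72 and Krt73 had no probe under these names, so they were not on the array rather than undetected. Hair matrix and shaft markers were at -0.51 over 10 of 10, with 4 of them 2-fold lower, against 0.987% of all genes (summed signals 96208 and 89789, most of it from Krt35 on each array). This list was split: Krt31, Krt33a, Krt33b and Krt34 ranged from -2.44 to -1.05. Krt35, Krt85, Hoxc13 and Msx2 ranged from -0.02 to 0.06, above the median of all genes. Foxn1 (-0.72) and Dlx3 (-0.29) lay below it. Bulge and hair germ markers, among them Lgr5 and Sox9, were at -0.23 over 7 of 7 (141800 and 140485). Dermal papilla markers, of the cells that signal to the matrix, were at -0.03 over 12 of 12 (5570 and 4910), and basal epidermis markers at -0.06 over 6 of 6 (359644 and 323289). Medians of the other lists were -0.23 for macrophages, 0.33 for T and NK cells, 0.27 for neutrophils, -0.13 for mast cells, 0.07 for endothelium, 0.11 for adipocytes, 0.20 for skeletal muscle, 0.34 for melanocytes and -0.24 for nerve and Schwann cells. The first 4 of these lists each held genes on both sides of the median of all genes. Each had 1 gene at least 2-fold higher (Aif1, Gzmb, S100a8 and Hdc), against 1.53% of all genes. With signals over 100, T and NK cells lay 0.89 above all genes in place of 0.40, and neutrophils 0.95 in place of 0.35. These medians rested on 3 genes each, in place of 6 and 4. For T and NK cells the genes left were Nkg7 (0.82), Klrd1 (1.00) and Cd3g (-0.50). Nerve and Schwann cells were then at -0.00 relative to all genes in place of -0.17, over 4 genes in place of 6. Cd8a, Gzma, Retnlg and Ly6g had no value on both arrays, and only 5 of the 6 neutrophil genes had a probe under their names. Interferon-response genes were far higher on the FGF18 array, at 2.79 over 14 of 14 (summed signals 82509 and 11838). The part of these cells or responses in the ratios of Sfrp1, Sfrp2, Lrp5, Wnt10a or any other member was not tested.

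**Figure D4:**
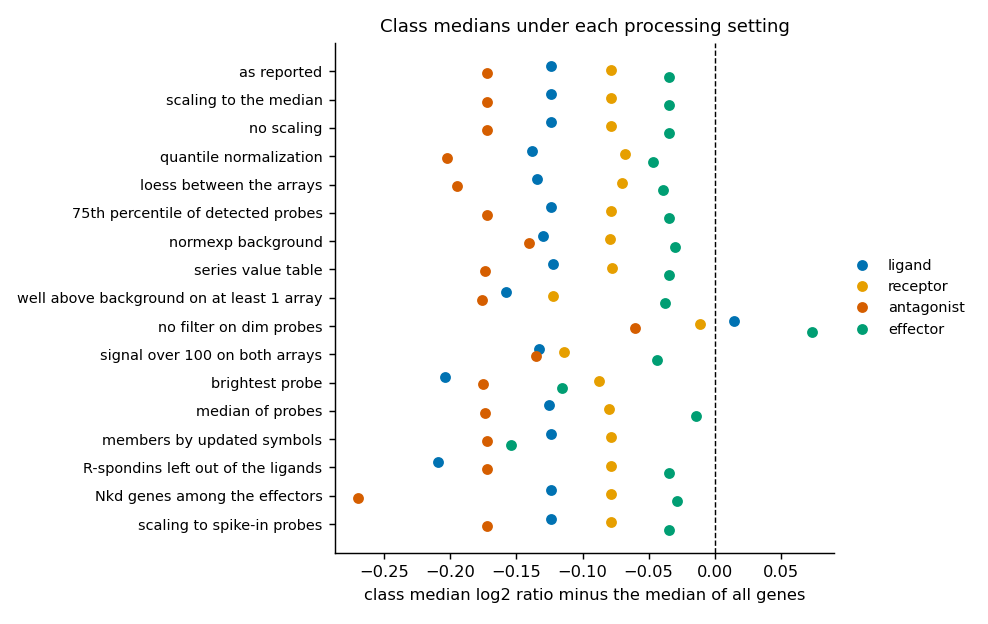
Median log2 ratio of each class minus the median of all genes (horizontal axis) under the reported processing and 16 alternatives (vertical axis). The antagonists and receptors lie below 0 in every setting, and the ligands (0.01) and effectors (0.07) lie above it without a filter on dim probes. Settings that only scale by a constant cannot move these medians and are no check on them.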

How the data were processed

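Poly(A) RNA of each group was labelled with Cy3 from 200 ng, per the labels' protocols. Per the file headers, the image software was Agilent Feature Extraction, version 9.5.3.1 (array design 014868). The deposited intensity values are a spot's mean intensity, its background and a processed signal, background-subtracted and detrended by the authors' software, written with 3 significant digits. Other deposited columns, per the file headers, are flags, spot types and spot numbers. The deposited series table holds a ratio: each column equalled the processed signal over the array's median (83.8 and 80.0), within 0.0078 on the log2 scale, with column medians of 1.00 and 0.999. Any further scaling is not stated.

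Log2 of the processed signal had each array's 75th percentile (1020 for FGF18, 897 for PBS) subtracted. Control and outlier spots were left out. Spots of each probe were averaged, and the probe was taken as measured if at least 0.5 of them were well above background. The mean log2 ratio of probes measured on both arrays represents a gene. For a probe measured on 1 array, a bound was taken from the bright value and, on the dim array, its signal or the lowest signal called well above background there (23.3 or 24.2), whichever was higher. Where its own signal was the higher, as for Wnt7a and Fzd3, the bound is only the scaled ratio of the signals. Levels of different probes are not comparable. Names other than members' were updated through RefSeq (GRCm38.p6); all 77 member probes kept their name. The files name no build, so probe coordinates are not given. Named members are those past 2-fold, those with bounds, the 3 highest and lowest of each class and preset pathway genes; other members are given more briefly. Of the 7 pathway lists, genes other than each list's highest and lowest (those past 1.5-fold, Wls, Porcn and Myc) were named after their values were seen. Members and lists were chosen with earlier results of these data known. There were 17 cell type and response lists. With 1 array per group, no p-value was computed. Calculations used Python 3.11.15, R 4.3.3 and limma 3.58.1 (normexp, quantile, loess), and were tested on simulated data.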

Additional observations from a re-analysis of the deposited data

How the results depend on the processing

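The alternatives were other scalings (the median, none, quantile, loess, detected probes), normexp background with an offset of 50, the series table, a looser filter on dim probes (1 array), no filter or signals over 100, the brightest or the median probe, thresholds of 1.5 and 3, updated names and other class borders; scaling to 7 spike-in probes was chosen after seeing the data. No paired analysis was possible because each group has 1 array, and no replicate could be left out. Scaling by a constant cannot change a median relative to all genes. The median, none, detected-probe and spike-in scalings are therefore no check on the class medians. The series table holds the same signal over a constant, and other class borders leave the remaining classes as they were. Relative to all genes, the median of all members was -0.10 and ranged from -0.14 to -0.03 over 16 alternatives, antagonists from -0.27 to -0.06, receptors from -0.12 to -0.01, ligands from -0.21 to 0.01 and effectors from -0.15 to 0.07. Without a filter on dim probes the values were 0.015 for ligands, -0.060 for antagonists, 0.073 for effectors and -0.025 for all members, the ligands and effectors being above 0; this setting adds 10 genes and further probes at background signal. With the brightest probe, ligands were at -0.20, below antagonists (-0.18), and effectors at -0.12, with updated names effectors at -0.15, without R-spondins ligands at -0.21, below antagonists (-0.17), and without Nkd genes antagonists at -0.27. Of members past the threshold on the lower side, there was 1 (Fzd8) without a filter, against 3.27% of all genes, and 1 (Fzd8) with probes of 1 array included, against 2.49%, and there were 4 at 1.5-fold. Fzd8 passed by a ratio to a signal not well above background. With that probe at its bound, an alternative chosen after seeing the data, Fzd8 was at -0.74 or lower. Those 4 at 1.5-fold became 2 with median scaling, 3 with loess and 1 (Sfrp1) without scaling, where Axin1 was 1.5-fold higher. Scaling to spike-ins adds 0.82 to every log2 ratio, leaving Sfrp1 at -0.00 and 4 members (Axin1, Frzb, Fzd9 and Wnt2) at least 2-fold higher, against 16.1% of all genes. The ratio of spike-in to sample RNA on each array is not stated. Of 43 members, 32 stayed on their side of the median of all genes in every planned setting that measured them, 22 below and 10 above. For a member with 1 probe on the array, the filters and the choice of probe could not change its ratio. The spot noise of dim probes and the single array per group limit what these values can show.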
